A study of Homo sapiens with 6 samples.

Results

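Plasminogen activation genes and clade B serpins were examined by RNA sequencing in MDA-MB-231, an established human triple-negative breast cancer cell line, after treatment with vehicle or guadecitabine (SGI-110). Guadecitabine is a dinucleotide prodrug that releases decitabine, which traps DNA methyltransferases so that DNA loses methylation as the cells divide. Each group had 3 libraries. Treated cells received 1 µM guadecitabine for 96 h and were then left for 24 h in its absence. All libraries came from the same cell line without genetic modification, the methods describe independent experiments, and the composition of the vehicle is not given in the sources used here. The 9 genes are SERPINB2, SERPINB5, SERPINB7, SERPINB8, SERPINB9, PLAU, PLAUR, PLAT and SERPINE2, and each had 1 of the 17100 transcripts in the table. They were chosen by name with the result of the vehicle and guadecitabine comparison already known, so that the fold changes of these genes describe the libraries and are not tests. All 9 passed the filter on low counts that left 13322 genes.

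Plasminogen is a circulating zymogen that becomes plasmin, a broad protease of fibrin and matrix, when it is cut by urokinase (PLAU) or tissue plasminogen activator (PLAT). The urokinase receptor PLAUR holds urokinase at the cell surface, and serpins, which trap their protease by a change of shape after cleavage, hold the activators in check. Clade B serpins mostly lack a classical signal peptide and act largely inside cells, and SERPINB2, also called plasminogen activator inhibitor 2, is the member that inhibits urokinase.

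The library totals ranged from 8792127 counts in guadecitabine replicate 2 to 22277442 in vehicle replicate 3. Vehicle replicate 3 stood apart at low counts, with 20 transcripts at 0 against 1593 to 2517 in the other libraries. Over the 2782 transcripts that had no more than 1 count in either of vehicle replicates 1 and 2, it held a median of 7.78 counts per kb of exon. At that level SERPINB2, SERPINB5 and SERPINB7 would have 14.8, 20.5 and 15.4 counts in this library, which bears on their vehicle values below. Of the markers that this line expresses highly, VIM had 32223 to 82480 counts and CD44 13085 to 41739 per library. Of those listed as low or absent in it, ESR1 and PGR had at most 1 count in every library except vehicle replicate 3, where they had 67 and 43. The others of that list were detected in vehicle, with 1702 to 1974 counts of ERBB2, 309 to 466 of EPCAM and 25 to 87 of CDH1. PTPRC, the defining leukocyte marker, had 36 counts in vehicle replicate 3 and no more than 3 elsewhere, and over the leukocyte markers in the table the summed level was 144 to 261 normalized counts in vehicle and 182 to 198 after guadecitabine, most of it CD14. For endothelial markers it was 57.1 to 142 and 94.1 to 119, most of it PECAM1, while CDH5 was at 0 in vehicle replicates 1 and 2. PECAM1 had 50 to 100 reads in vehicle and 39 to 104 after guadecitabine. For erythroid markers the summed level was 11.5 to 23.2 and 38.1 to 48.9. Of the 4 markers that this line expresses highly, VIM and CD44 rose and AXL and CAV1 fell in edgeR. The 3 tested epithelial or receptor markers listed as low or absent, ERBB2, CDH1 and EPCAM, all fell in edgeR. The call of VIM was lost without any 1 vehicle library or guadecitabine replicate 3 (0.23 to 0.34). That of CDH1 was lost without vehicle replicate 1 or any 1 guadecitabine library (-1.76 to -1.55), and with no filter on low counts (-1.59). No leukocyte or endothelial marker was called with all libraries, though the endothelial marker PECAM1, whose groups did not overlap, passed without vehicle replicate 3 (log2 fold change 0.77, against 0.55 with it), and HBA1 was called higher, a call lost without vehicle replicate 1 (1.63) or without guadecitabine replicate 1 (1.78), 2 (1.62) or 3 (1.70). The part of these differences in the results was not tested, and in bulk RNA a change in the share of expressing cells and a change of RNA per cell cannot be told apart.

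The clade B genes fall into clusters. SERPINB5, SERPINB7, SERPINB2 and SERPINB8 lie in this order on the plus strand of chromosome 18 (hg19), within 512465 bp from the start of SERPINB5 at 61144144 to the end of SERPINB8 at 61656608, and SERPINB9 lies on the minus strand of chromosome 6 from 2887500 to 2903546. The 250 bases before the transcript start are shown for these 5 genes, because the DNA methylation that is lost under the drug lies mainly at CpG dinucleotides. The genes differ widely in how many CpG lie there. They were read from GRCh37, the same assembly as hg19, at chr18:61554689-61554938 for SERPINB2, chr18:61420031-61420280 for SERPINB7, chr18:61637013-61637262 for SERPINB8 and chr18:61143894-61144143 for SERPINB5, all on the plus strand. The sequence of SERPINB9 is the minus strand of chr6:2903547-2903796. Each is written 5′ to 3′ and ends at the base before the deposited start, and capitals mark CpG.
SERPINB2: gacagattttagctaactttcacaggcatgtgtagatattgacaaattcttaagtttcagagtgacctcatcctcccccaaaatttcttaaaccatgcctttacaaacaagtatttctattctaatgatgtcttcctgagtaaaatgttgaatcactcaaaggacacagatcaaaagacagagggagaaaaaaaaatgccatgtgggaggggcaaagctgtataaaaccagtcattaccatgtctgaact
SERPINB7: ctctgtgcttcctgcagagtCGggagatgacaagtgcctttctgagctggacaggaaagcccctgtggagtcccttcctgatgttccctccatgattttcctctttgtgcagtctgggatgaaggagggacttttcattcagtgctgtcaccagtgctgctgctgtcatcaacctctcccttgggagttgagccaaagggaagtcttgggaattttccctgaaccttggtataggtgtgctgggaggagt
SERPINB8: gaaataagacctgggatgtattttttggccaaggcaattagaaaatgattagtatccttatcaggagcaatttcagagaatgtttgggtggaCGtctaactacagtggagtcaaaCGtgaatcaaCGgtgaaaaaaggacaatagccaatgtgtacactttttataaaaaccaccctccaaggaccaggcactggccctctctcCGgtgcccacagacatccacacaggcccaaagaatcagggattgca
SERPINB5: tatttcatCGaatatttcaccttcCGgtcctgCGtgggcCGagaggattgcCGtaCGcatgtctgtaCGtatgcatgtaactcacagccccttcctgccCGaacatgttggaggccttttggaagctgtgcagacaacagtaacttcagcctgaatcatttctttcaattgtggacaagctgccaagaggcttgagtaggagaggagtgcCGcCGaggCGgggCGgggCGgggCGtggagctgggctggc
SERPINB9: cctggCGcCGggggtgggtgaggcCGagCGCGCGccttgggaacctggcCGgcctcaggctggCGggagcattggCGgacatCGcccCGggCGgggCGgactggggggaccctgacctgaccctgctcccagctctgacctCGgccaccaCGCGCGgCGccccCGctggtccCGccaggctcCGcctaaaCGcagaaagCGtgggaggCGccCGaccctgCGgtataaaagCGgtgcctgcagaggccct

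The SERPINB2 window held 0 CpG, as in 350 of the 17100 transcripts in the table (2.05%), while the median over the table was 17. SERPINB7 had 1 CpG, SERPINB8, PLAUR and PLAT had 4 each, SERPINB5 had 14, PLAU had 21, SERPINB9 had 27 and SERPINE2 had 39. Over the 1000 bases centred on the start, the ratio of observed to expected CpG was 0.100 for SERPINB2 and 0.117 for SERPINB7, against 0.508 for SERPINB5, 0.644 for SERPINB8, 0.731 for SERPINB9 and a median of 0.737 over the table. A TATAAA motif began at position -30 from the start of SERPINB2 and -27 from that of SERPINB9, at -90 and -88 in SERPINB8 and at -231, -31 and -29 in PLAT. The matches at -90 and -88 in SERPINB8 overlap on opposite strands, as do those at -31 and -29 in PLAT, so each pair is a single stretch. The motif was held by 7.42% of all windows. The AP-1 motif TGANTCA was found once each in SERPINB2, SERPINB5, SERPINB8 and PLAUR, at positions -102, -99, -133 and -9, against 4.58% of all windows. A form of the NF-kB motif was found in SERPINB7 at position -197 and in 1.68% of all windows. Both strands were searched, N stands for any base, no motif is part of another, and a match describes the letters only.

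Of the 9 genes, 6 rose and 1 fell at an adjusted p of 0.05 in edgeR (quasi-likelihood fit, p-values adjusted over all genes by Benjamini and Hochberg). Among all genes tested, 19.3% were called higher and 18.4% lower after guadecitabine. Every guadecitabine library lay above every vehicle library in 7 of the 9 genes and below in 1, a separation seen upwards in 26.6% and downwards in 25.0% of all genes tested. The genes that rose were SERPINB2, SERPINB5, SERPINB7, SERPINB8, PLAUR and PLAT, the gene that fell was SERPINB9, and PLAU and SERPINE2 did not pass. The median log2 fold change was 1.17 over the 9 genes and 0.02 over all genes tested. Since the comparison chose the genes, nothing is read from these shares.

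**Figure D1:**
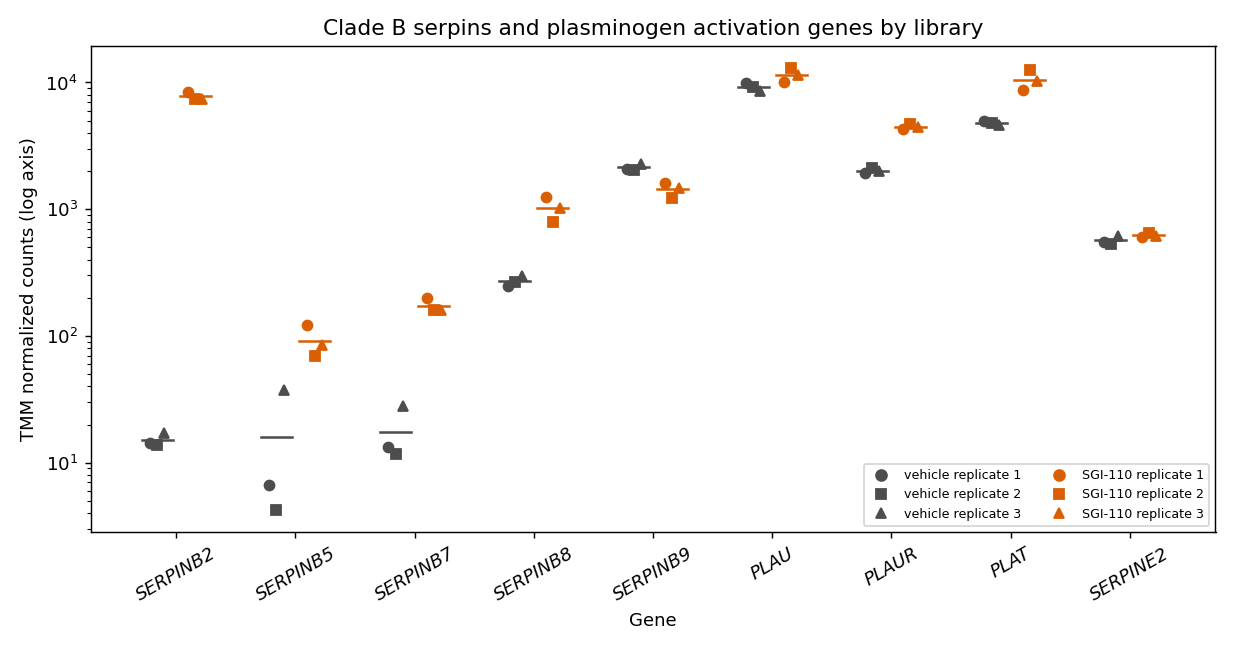
TMM normalized counts (vertical axis, log scale) of the 9 genes in each of the 3 vehicle (grey) and 3 guadecitabine (SGI-110, orange) libraries, with bars at the group means and marker shapes for replicates 1 to 3. SERPINB2 stands between 13.8 and 17.0 in vehicle and between 7382 and 8472 after guadecitabine, while the groups of SERPINE2 overlap.

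SERPINB2 had the largest change of the 9 genes. It had 15, 13 and 22 reads in vehicle replicates 1, 2 and 3, and 10449, 3622 and 7327 reads in guadecitabine replicates 1, 2 and 3. Scaled by edgeR's TMM method to a common library size, these were 14.3, 13.8 and 17.0 against 8472, 7382 and 7408 normalized counts. The lowest guadecitabine library was thus 434 times the highest vehicle library, and each group was tight. The means were 15.0 ± 1.75 and 7754 ± 622 normalized counts (SD, n = 3 each), a log2 fold change of 8.99 (standard error 0.161). It ranked as number 11 of the 13322 tested genes by log2 fold change. An annotated same-strand transcript, ENSG00000289724, shares 547 of the 2632 exon bases of SERPINB2 in GENCODE, so that reads in that stretch cannot be told apart between them. The change in SERPINB2 was 9.10 on the log2 scale without vehicle replicate 3, and 8.92 to 9.10 on leaving out each library in turn.

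SERPINB7, or megsin, first described in kidney mesangial cells, was low in vehicle. It had 14, 11 and 36 reads in vehicle replicates 1 to 3 and 246, 79 and 158 after guadecitabine. In normalized counts these were 13.4, 11.6 and 27.8 against 200, 161 and 160, with the highest vehicle value in replicate 3 and no overlap between groups. On the log2 scale the difference was 3.26 (standard error 0.329), with 3.05 to 3.79 on leaving out each library and the highest value without vehicle replicate 3.

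SERPINB5, or maspin, is a serpin without known protease inhibition that is regarded as a tumor suppressor in breast and whose promoter is known to be methylated in breast cancer cells that do not express it. It had 7, 4 and 48 reads in vehicle and 150, 34 and 84 after guadecitabine, or 6.68, 4.23 and 37.1 against 122, 69.3 and 84.9 normalized counts. Vehicle replicate 3 was far above the other vehicle libraries, though under each guadecitabine library. The log2 fold change was 2.47 (standard error 0.678) with all libraries and 4.07 without vehicle replicate 3. It no longer passed without vehicle replicate 1 (2.11) or without guadecitabine replicate 1 (2.23) or 3 (2.54). This was the gene with the fewest reads and the largest standard error of the 9.

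SERPINB8, a cytoplasmic serpin that inhibits furin and other serine proteases, was already expressed in vehicle, with 259, 254 and 381 reads, and had 1549, 391 and 1009 after guadecitabine. The normalized counts were 247, 269 and 295 in vehicle and 1256, 797 and 1020 after the drug, so that the guadecitabine libraries differed more among themselves than the vehicle libraries did, with replicate 2 the lowest. Its log2 fold change was 1.93, with a standard error of 0.169. GENCODE exons of HMSD, the gene just upstream, share 370 of the 4045 annotated exon bases of SERPINB8 on the same strand.

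SERPINB9, the intracellular inhibitor of granzyme B that protects cells from their own or foreign cytotoxic granules, moved the other way. It had 2182, 1929 and 2964 reads in vehicle and 1997, 606 and 1445 after guadecitabine, or 2081, 2040 and 2292 against 1619, 1235 and 1461 normalized counts. Each guadecitabine library was below each vehicle library, and the vehicle mean was 1.49 times the guadecitabine mean. In edgeR the log2 fold change was -0.57 (standard error 0.123).

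Along the cluster on chromosome 18, the changes did not include every gene. HMSD, which lies between SERPINB2 and SERPINB8 at 61616588 to 61627645, had 120, 96 and 128 reads in vehicle and 157, 64 and 118 after guadecitabine, with a log2 fold change of 0.26 (standard error 0.173, edgeR adjusted p = 0.273) and no overlap between the groups in normalized counts. It was named for its position after its values were seen. SERPINB12, SERPINB13 and SERPINB4 lie between SERPINB5 and SERPINB7, had at most 5 reads in every library except vehicle replicate 3, where they had 7, 16 and 22, and did not pass the filter on low counts. Of the genes before the cluster, BCL2, an inhibitor of apoptosis, fell by 1.03 on the log2 scale (edgeR adjusted p = 0.0203), KDSR, an enzyme of ceramide synthesis, rose by 0.61 (edgeR adjusted p = 0.00173), and VPS4B had a log2 fold change of 0.32 (edgeR adjusted p = 0.108). BCL2 did not pass without vehicle replicate 1 (-0.89) or guadecitabine replicate 3 (-0.90), and VPS4B did pass without guadecitabine replicate 2 (0.45). On chromosome 6 the neighbours of SERPINB9 are the clade B genes SERPINB1, an inhibitor of neutrophil serine proteases, and SERPINB6. SERPINB1 had normalized counts of 3651, 3755 and 3309 in vehicle and 2214, 1987 and 2232 after guadecitabine, a log2 fold change of -0.73 (edgeR adjusted p = 0.000629). SERPINB6 had a log2 fold change of -0.56 (edgeR adjusted p = 0.00376). All 3 clade B genes of that cluster were thus called lower, against 18.4% of all genes tested. They were chosen with earlier results known, so nothing is read from this count. WRNIP1, beside them, had a log2 fold change of 0.25 (edgeR adjusted p = 0.0628), and passed with DESeq2's Wald test (0.25) and with library totals only (0.29). Of the other flanking genes listed, GMDS was called lower, with a log2 fold change of -0.98, while MYLK4 and PHLPP1 were not called.

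**Figure D2:**
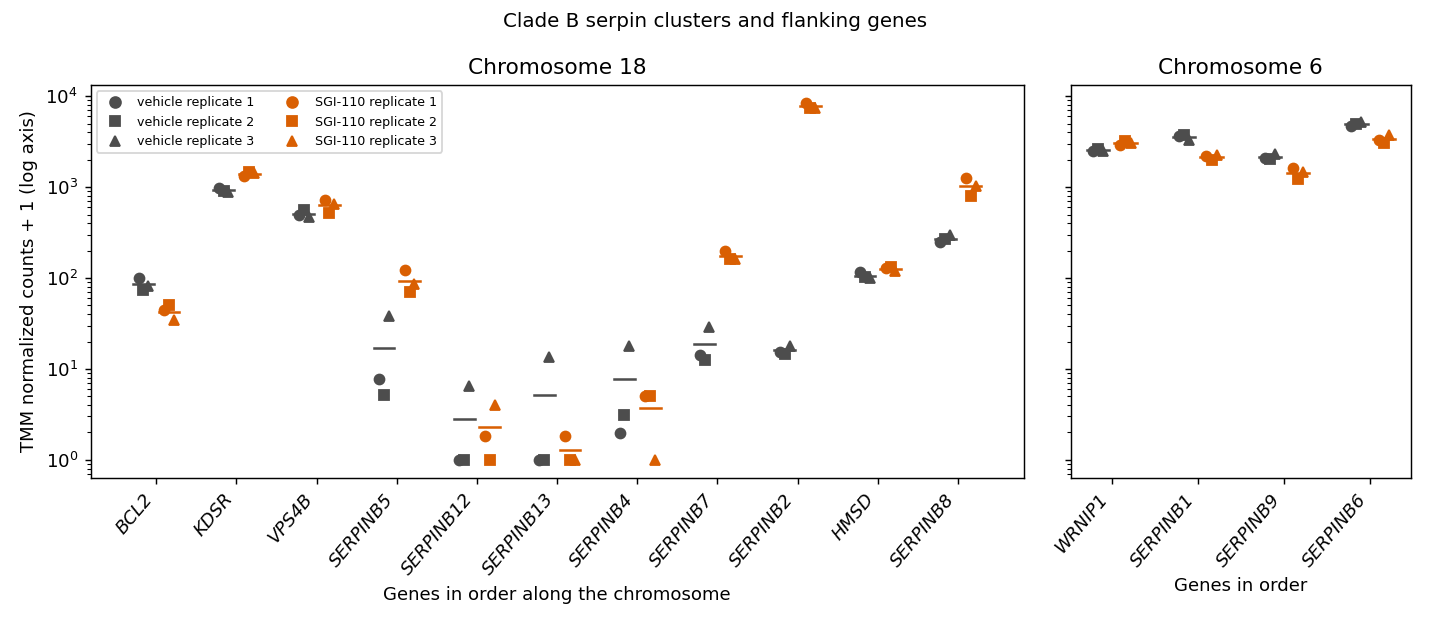
TMM normalized counts plus 1 (vertical axis, log scale) of the genes of the table along the chromosome 18 and chromosome 6 serpin clusters, in chromosomal order and not to distance, with 1 point per library, bars at the group means, vehicle in grey and guadecitabine (SGI-110) in orange. On chromosome 18 the serpin genes SERPINB5, SERPINB7, SERPINB2 and SERPINB8 are separated upwards. KDSR and HMSD are too, though HMSD, at a log2 fold change of 0.26, was not called, and BCL2 is separated downwards. On chromosome 6 SERPINB1, SERPINB9 and SERPINB6 are separated downwards and WRNIP1 upwards. Of all genes tested, 26.6% were separated upwards and 25.0% downwards.

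Urokinase was the most abundant of the 9 genes per length in both groups. PLAU, on chromosome 10 from 75670862 to 75677258, had 10354, 8634 and 11139 reads in vehicle and 12385, 6380 and 11311 after guadecitabine, or 9875, 9131 and 8615 against 10042, 13004 and 11436 normalized counts. The lowest guadecitabine library was only 1.02 times the highest vehicle library. The log2 fold change of 0.32 (standard error 0.117) did not pass the threshold, and it did pass in 4 of 12 tested alternatives, among them without guadecitabine replicate 1 (0.41). Its exons share 770 of 2686 annotated bases with C10orf55 on the opposite strand, a gene with a mean of only 118 normalized counts in vehicle, and whether reads were counted by strand is not given in the sources used here.

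The receptor gene PLAUR, on chromosome 19 from 44150247 to 44174498, had 2007, 1987 and 2567 reads in vehicle and 5312, 2288 and 4443 after guadecitabine. The normalized counts were 1914, 2101 and 1985 against 4307, 4663 and 4492, with a gap between the groups much wider than either group. The log2 fold change was 1.17 (standard error 0.0965), with a range of 1.14 to 1.21 on leaving out each library. PLAT, on chromosome 8 from 42032236 to 42065194, had 5205, 4518 and 5933 reads in vehicle and 10812, 6204 and 10145 after guadecitabine, or 4964, 4778 and 4589 against 8767, 12645 and 10257 normalized counts. The vehicle libraries were close together and the guadecitabine libraries spread, with replicate 2 the highest. Its log2 fold change was 1.14 (standard error 0.136).

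SERPINE2, or protease nexin 1, is a secreted inhibitor of thrombin, urokinase and plasmin. The gene lies on chromosome 2 from 224839765 to 224904036. It had 583, 507 and 798 reads in vehicle and 738, 321 and 613 after guadecitabine, and 556, 536 and 617 against 598, 654 and 620 normalized counts. The groups overlapped, the log2 fold change was 0.13 (standard error 0.105), and it passed in 0 of 12 tested alternatives.

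The guadecitabine libraries also differed among themselves. Replicate 2, the shallowest, had the highest normalized count of PLAU, PLAT, PLAUR and SERPINE2 and the lowest of SERPINB2, SERPINB5, SERPINB8 and SERPINB9. Whether depth has a part in this was not tested. Without guadecitabine replicate 2, 6 of the 9 genes were called higher and 1 lower, as with all libraries.

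To compare levels between genes, normalized counts were expressed per kb of counted exon. In vehicle the order was PLAU with 4795 ± 330 reads per kb (SD, n = 3), PLAT with 1574 ± 61.9, PLAUR with 1395 ± 65.8, SERPINB9 with 533 ± 33.8, SERPINE2 with 253 ± 18.7 and SERPINB8 with 84.5 ± 7.47. Each of these was above the next in every library, whereas SERPINB7, SERPINB2 and SERPINB5, at 8.91 ± 4.51, 7.87 ± 0.916 and 6.08 ± 6.96, did not differ beyond their spread. After guadecitabine PLAU was still first with 5986 ± 772 reads per kb, and SERPINB2 was second with 4064 ± 326. SERPINB2, PLAT at 3478 ± 645 and PLAUR at 3129 ± 124 followed in this order, with overlap between SERPINB2 and PLAT and between PLAT and PLAUR. SERPINB9 at 359 ± 48.1, SERPINB8 at 321 ± 71.9 and SERPINE2 at 277 ± 12.5 overlapped with their neighbours, and SERPINB7 at 87.8 ± 11.4 and SERPINB5 at 34.9 ± 10.2 were last and apart.

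Set against PLAU in the same library, SERPINB2 was at 0.00146, 0.00151 and 0.00199 reads per PLAU read, per kb, in vehicle and at 0.849, 0.571 and 0.652 after guadecitabine. SERPINB2 RNA was thus a trace beside urokinase RNA in vehicle and of the same order of magnitude after the drug. The ratio of PLAU to PLAT was 3.14, 3.02 and 2.97 in vehicle and 1.81, 1.63 and 1.76 after guadecitabine, without overlap, and the ratio of PLAUR to PLAU was 0.260, 0.308 and 0.309 in vehicle and 0.574, 0.480 and 0.526 after the drug. SERPINE2 was at 0.0530 ± 0.00702 of PLAU in vehicle and 0.0466 ± 0.00396 after guadecitabine (SD, n = 3 each). These are ratios of RNA levels and hold no measure of protein or protease activity.

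**Figure D3:**
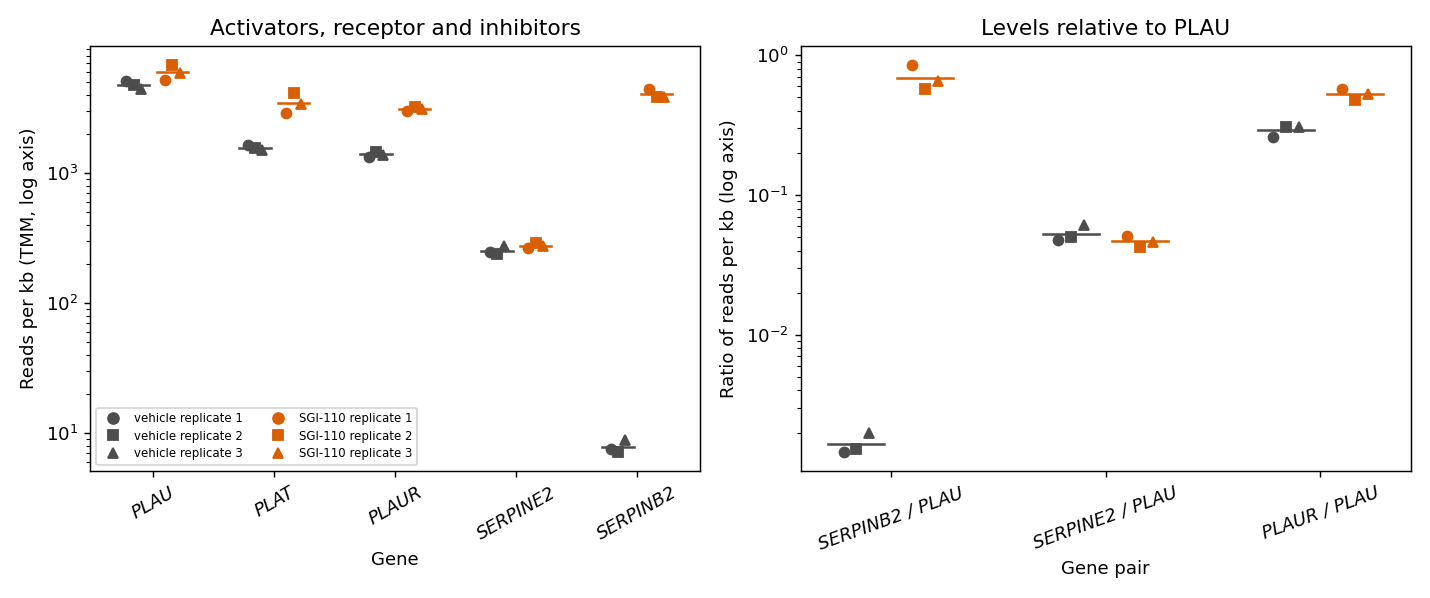
Left, reads per kb (TMM normalized counts per kb of counted exon, log axis) of the activators PLAU and PLAT, the receptor PLAUR and the inhibitors SERPINE2 and SERPINB2; right, the ratio to PLAU in the same library (log axis), with 1 point per library, bars at the group means, vehicle in grey and guadecitabine (SGI-110) in orange. The ratio of SERPINB2 to PLAU is 0.00165 on average in vehicle and 0.691 after guadecitabine, while that of SERPINE2 overlaps between groups.

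The wider system was described with 50 other genes in 6 lists by role, of which 41 were in the table and 29 passed the filter. Those outside the table, among them the granzyme B gene GZMB, were not analysed here. Besides PLG and 3 clade B genes, those that did not pass the filter were SERPING1, A2M, CPB2, LRP2, HPN, KLK2, PRTN3 and CASP1, with at most 7 reads in each library other than vehicle replicate 3, where they had 6 to 95. Of the 29 tested, 8 rose and 13 fell in the edgeR test, and their median log2 fold change was -0.29, against 19.3% higher, 18.4% lower and a median of 0.02 over all genes tested. The number that rose was 4 without vehicle replicate 1 or guadecitabine replicate 3, 5 without vehicle replicate 2 or 3 or guadecitabine replicate 2, and 7 without guadecitabine replicate 1. Among 3 tested inhibitors, SERPINA5, the protein C inhibitor, fell from 40, 26 and 37 reads to 1, 2 and 4 (edgeR adjusted p = 0.00418). SERPINF2, the plasmin inhibitor alpha-2-antiplasmin, and SERPINI1, neuroserpin, had log2 fold changes of -0.77 and -0.29 and were not called, and that of SERPINI1 was 0.26 without vehicle replicate 3.

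Plasminogen itself (PLG) had at most 3 reads in every library except vehicle replicate 3, with 10, and was not tested. Of the proteins that bind it at the cell surface, ENO1, a glycolytic enzyme also found there, fell by 1.25 on the log2 scale (edgeR adjusted p = 6.04e-05), and S100A10 fell by 0.51 (edgeR adjusted p = 0.00576). ANXA2, the partner of S100A10, rose by 0.32 (edgeR adjusted p = 0.0201), a call lost without vehicle replicate 1 (0.33), 2 (0.36) or 3 (0.28) and without guadecitabine replicate 3 (0.31). PLGRKT had a log2 fold change of 0.20 and was not called.

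Of 14 tested receptor partners and clearance receptors, 3 rose and 8 fell, against 19.3% higher and 18.4% lower among all genes tested. The list was chosen with earlier results known, so nothing is read from these shares. The integrin subunits ITGB3, ITGA5 and ITGAV rose by 1.48, 0.76 and 0.50 on the log2 scale, while ITGA3 and ITGB5 fell by 1.13 and 0.92. SORL1, an endocytic receptor, had 679, 540 and 941 reads in vehicle and 129, 62 and 112 after guadecitabine, a log2 fold change of -2.52 (edgeR adjusted p = 2.74e-06). LRP1 and VLDLR, which take up protease and inhibitor complexes, fell by 0.93 and 0.81, and the urokinase receptor associated protein MRC2 fell by 0.41. FPR1, a formyl peptide receptor reported to respond to cleaved PLAUR, fell by 1.15, and VTN, the matrix protein vitronectin that PLAUR binds, fell by 1.11. ITGB1 and IGF2R had log2 fold changes of -0.13 and 0.10 and FPR2 had 1.36, and none of these 3 was called. MRC2 and VTN did not pass without vehicle replicate 1 (-0.36 and -1.11) or 2 (-0.37 and -1.12) or without guadecitabine replicate 1 (-0.31 and -1.23) or 3 (-0.41 and -0.86). MRC2 also did not pass with no filter on low counts (-0.39). ITGB1 passed without guadecitabine replicate 1 (-0.39) and FPR2 without vehicle replicate 3 (1.75).

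Among proteases, F12 and CTSL rose by 0.66 and 0.36, and ST14 and CTSB, at 0.27 and -0.20, were not called. Of the listed protease targets of clade B serpins, CTSS, a lysosomal cysteine protease, had 255, 248 and 298 reads in vehicle and 2319, 651 and 1508 after guadecitabine (log2 fold change 2.69, edgeR adjusted p = 2.60e-06), and FURIN rose by 0.41. The call of CTSL was lost on leaving out any 1 library (0.26 to 0.44). That of FURIN was lost without any 1 except guadecitabine replicate 1 (0.30 to 0.49). F12 lost its call without vehicle replicate 1 (0.63) or 3 (0.57) and without guadecitabine replicate 2 (0.51) or 3 (0.64). With DESeq2's Wald test F12 was not called either (0.67), nor were CTSL (0.37) and FURIN (0.42) with no filter on low counts.

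**Figure D4:**
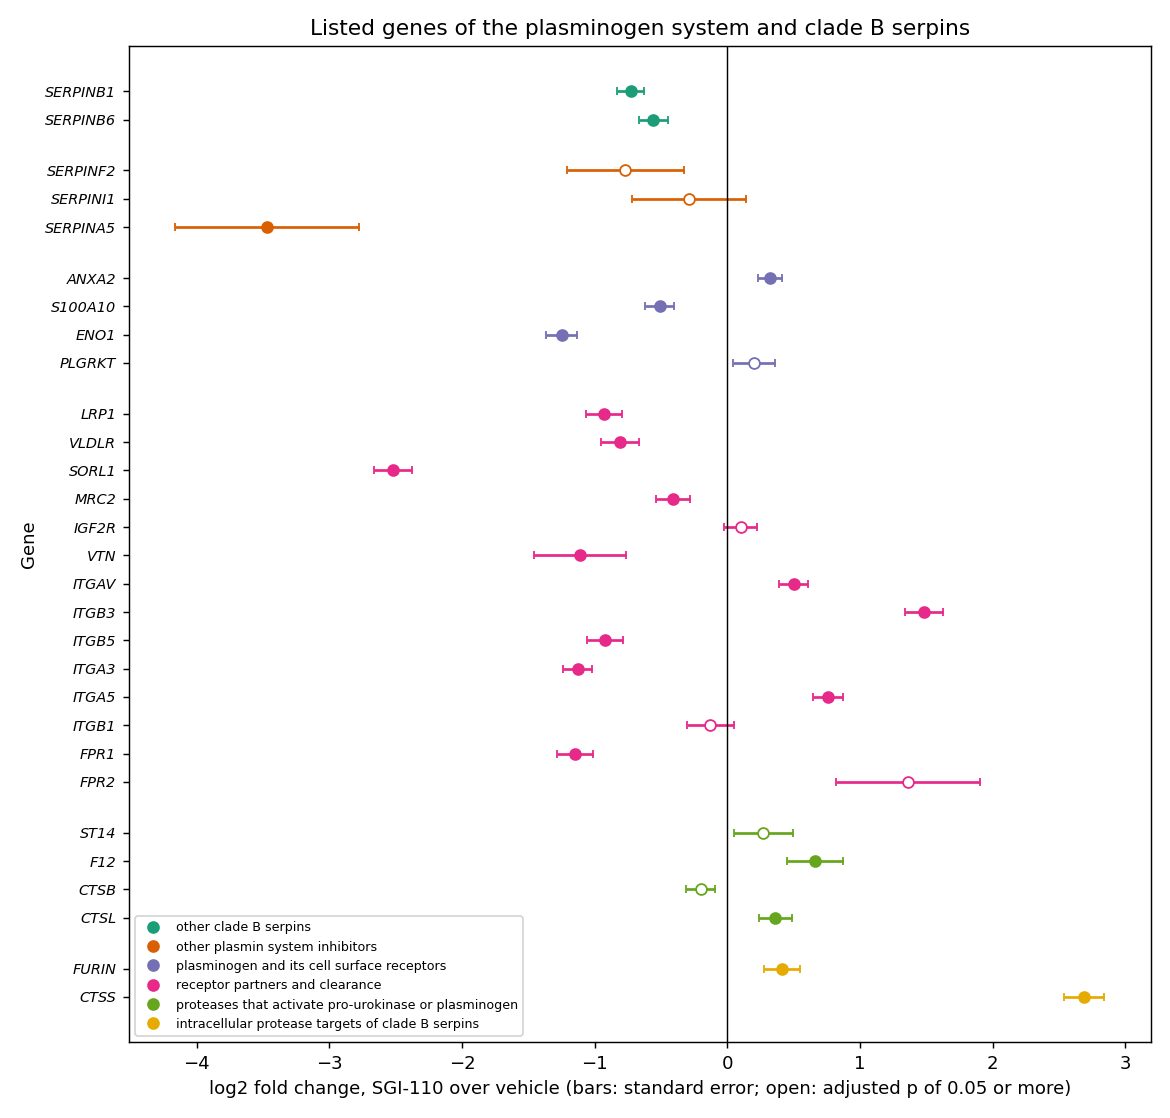
log2 fold change (horizontal axis, guadecitabine over vehicle, bars for the standard error) of the 29 tested genes of the 6 lists, colored by list, with filled points for an adjusted p under 0.05 and open points for the rest. CTSS lies farthest to the right, at 2.69, and SERPINA5 and SORL1 farthest to the left.

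Likeness to SERPINB2 and PLAU over the 6 libraries was measured as the root mean square difference in log2 CPM after centring each gene on its own mean. Closest to SERPINB2 were CSF3 at 0.233, VCX at 0.250 and CCL20 at 0.265. Their log2 fold changes were 9.14, 11.52 and 9.72, against 8.99 for SERPINB2. CSF3, the neutrophil growth factor G-CSF, had 22, 15 and 38 reads in vehicle and 14890, 6761 and 12449 after guadecitabine. VCX had 0, 0 and 1 reads in vehicle and CCL20 had 3, 1 and 3. The log2 CPM values hold a small added count, which compresses differences at such low counts, so a short distance is not an equal fold change. Closest to PLAU were TBC1D10B at 0.027, DGAT2 at 0.032 and TMEM173 at 0.038, with log2 fold changes of 0.33, 0.33 and 0.35.

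In the counts of CpG in the 250 bases before the start, the 140 tested genes with 0 CpG, SERPINB2 among them, were called higher in 20.7% and lower in 17.9%. The corresponding shares were 19.3% and 18.4% among the 13182 tested genes with at least 1 CpG. The filter on low counts left 140 of the 350 transcripts with 0 CpG, against 13322 of all 17100. These shares therefore describe tested genes only, and say nothing of the transcripts that did not pass the filter. The 4 genes with the most CpG among the 9 were SERPINE2, SERPINB9, PLAU and SERPINB5, with log2 fold changes of 0.13, -0.57, 0.32 and 2.47. Methylation was not analysed here.

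**Figure D5:**
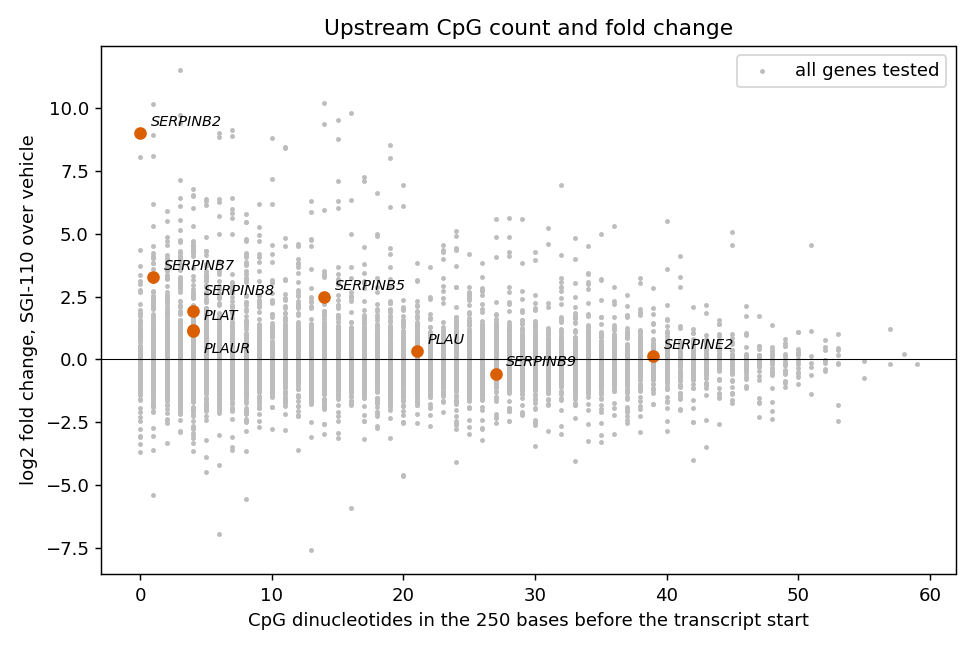
Number of CpG dinucleotides in the 250 bases before the transcript start (horizontal axis) and log2 fold change (vertical axis, guadecitabine over vehicle) for all 13322 genes tested (grey) and the 9 genes (orange). SERPINB2 has 0 CpG and a log2 fold change of 8.99, and large rises are seen in the grey points at many CpG counts.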

How the data were processed

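RNA of MDA-MB-231 cells was sequenced in 3 vehicle and 3 guadecitabine libraries, grouped by their labels. The authors aligned reads to hg19 with STAR (2.3.1z in the submitters' processing notes), counted tags in exons with iRNA-seq and deposited raw counts per RefSeq transcript. They also deposited regularized log2 values from DESeq2 and the counted exon length in bp. Columns of the authors' own DESeq2 comparison were not used. Totals were 8792127 to 22277442 counts, and whether the kit and the counting kept the strand is not given in the sources used here.

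The test was edgeR's quasi-likelihood fit of the counts (version 4.0.16, R 4.3.3), with TMM scaling, filterByExpr at a minimum count of 10 and Benjamini-Hochberg adjustment over 13322 genes (threshold 0.05). The procedure was tested on simulated data with 200 of 13127 genes changed, of which 168 were recovered, with 14 false calls. That simulation changed far fewer genes than were called here and held no library with raised low counts like vehicle replicate 3. Normalized counts are scaled to the mean effective library of 17937628. Alternatives were DESeq2 1.42.0, its size factors, library totals, other filters, a test against a fold of 2, the deposited log2 values, a replicate block and leaving out each library.

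The genes and lists were chosen with earlier results of these data known. The text names the 9 genes, the listed genes that passed, others with values only, and the 3 tested genes most like SERPINB2 and PLAU. Deposited starts count from 0, so 1 was added. Upstream windows were read from GRCh37 and overlaps from GENCODE on that build, and all 9 genes had a window. Genes flanking the serpin clusters were counted apart from the 6 lists. Of the genes considered for the 6 lists, 1 was left out of them and of all their counts and is not reported here.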

Additional observations from a re-analysis of the deposited data

How the results depend on the processing

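Of the 9 genes, 5 to 7 were called higher and 1 lower under every alternative run except a test against a fold of 2, which called 3 higher (SERPINB2, SERPINB7 and SERPINB8) and 0 lower. That test called 696 genes over the whole table, 435 higher and 261 lower, and 2 higher and 2 lower of the listed genes. On leaving out each library in turn, 3335 to 5577 genes were called, 1706 to 3002 higher and 1629 to 2575 lower, with the fewest without guadecitabine replicate 3, and 4 to 7 of the listed genes were called higher. The log2 fold change of SERPINB5 was then 2.06 to 4.07 and that of PLAU 0.22 to 0.41. PLAU passed with DESeq2's Wald test (0.32), with library totals only (0.35) and with at least 10 counts in every library (0.32), a filter under which SERPINB5 was not tested. The deposited regularized log2 values, which are shrunk and have no test here, differed between groups by 6.04 for SERPINB2, 0.37 for SERPINB5, 0.70 for SERPINB7, 1.21 for SERPINB8 and 0.95 for PLAUR. The cause of these shifts was not tested. No called fold change changed sign, and 508 of 570 values of the other listed genes kept their sign and their side of the threshold. Fold changes of 5 genes that were not called changed sign. On leaving out each library, they ranged from -0.57 to 0.26 for SERPINI1 and from -1.13 to 1.37 for VWF, positive without vehicle replicate 3. Those of IGF2R, ITGB1 and MYLK4 ranged from -0.01 to 0.17, from -0.39 to 0.03 and from -0.74 to 0.03, with the change of sign without guadecitabine replicate 2.

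Libraries with the same replicate number did not deviate together (correlations of -0.050, 0.049 and -0.037 over genes), so the numbers were not taken as pairs. With a replicate block 4654 genes were called, 2424 higher and 2230 lower, and 6 of the 9 genes were higher and 1 lower. Of the listed genes 7 were then higher and 12 lower. The log2 fold change was 2.90 for SERPINB5, 0.31 for PLAU and 0.09 for VWF. The block ended the calls of ANXA2 (0.32), VTN (-1.15), VIM (0.32) and CDH1 (-1.56). Low counts in vehicle limit the fold changes of SERPINB2, SERPINB5 and SERPINB7.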
